A study of Mus musculus with 6 samples.

Results

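The genes described here encode the extracellular and membrane part of the Wnt pathway, together with the Axins: the secreted Wnt ligands, the Frizzled receptors, the co-receptors Lrp5 and Lrp6, the secreted inhibitors of the sFRP, Dickkopf and Wif1 families, and Axin1 and Axin2. Members were chosen by gene name. A locus of the deposited files belongs to the set when 1 of its names is a Wnt, a Frizzled, Sfrp1 to Sfrp5, Frzb, Dkk1 to Dkk4, Dkkl1, Wif1, Lrp5, Lrp6, Axin1 or Axin2. Fzd3 was left out because it lies near Stc1, the gene that was disrupted. The choice gave 45 loci of the 36812 named loci kept, and they carry 43 gene names, because Wnt4 and Wnt5b each have a second, short locus on the opposite strand. The rule reads gene names and no expression value.

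RNA came from mouse embryonic fibroblasts, cells grown out of mouse embryos and kept in culture, on a C57BL/6 background. The wild-type group (STC1+/+) and the knockout group (STC1-/-) had 3 libraries each, and both groups were grown in the same medium, DMEM with fetal calf serum and antibiotics. Stc1 encodes stanniocalcin-1, a secreted glycoprotein. The labels describe no transgene or Cre, and the kind of disruption, the age of the embryos and the passage of the cultures are not stated there. They also leave unsaid whether the 3 libraries of a genotype are from different embryos. The p-values below therefore set the difference between groups against the spread between libraries. That spread may be partly technical and may not be that between embryos. Replicate numbers are names and were not used to pair libraries across genotypes.

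As background, Wnt proteins are lipid-modified ligands that bind a Frizzled receptor on the receiving cell. In the canonical branch the ligand also engages Lrp5 or Lrp6, Axin is drawn to the membrane, and β-catenin, no longer marked for destruction, enters the nucleus and acts with TCF/LEF factors. In the non-canonical branches Wnt5a and Wnt11 act through Frizzleds and the Ror or Ryk receptors on cell polarity and movement. The sFRPs and Wif1 bind Wnts outside the cell, while Dickkopfs such as Dkk1 and Dkk2 bind Lrp5 and Lrp6. In embryonic mesenchyme, from which these fibroblasts derive, the pathway is known for patterning limbs and for the choice between cartilage, bone and fat.

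The libraries held 21882092 to 71488701 estimated fragments. The targeted gene Stc1 had 2245, 291 and 368 fragments in wild-type and 6, 0 and 0 in knockout libraries. The libraries stood apart in the RNA of other cell types. Macrophage markers, of which 16 of 17 had a usable locus, summed to 414, 1614 and 12034 CPM in wild-type replicates 1 to 3 and to 1502, 511 and 565 CPM in knockout replicates 1 to 3 (CPM, counts scaled to a common library size by TMM). None of the 16 was at 0 in any library. The markers did not keep 1 order of libraries: the macrophage receptor gene Adgre1 was at 1.6, 74.7 and 972 CPM in wild-type and 168, 12.9 and 22.3 CPM in knockout libraries, and the complement gene C1qa at 0.255, 90.5 and 809.7 against 2.91, 0.188 and 0.377 CPM. Knockout replicate 1 was thus above wild-type replicate 2 for Adgre1 and below it for C1qa. The mean of the proliferation markers, as log2(CPM + 0.5), was 7.30 in wild-type replicate 2 and 4.63 to 5.61 in the other libraries. Fibroblast markers had the highest mean of the lists in every library, though in wild-type replicate 3 the macrophage list came close (8.83 and 8.69). The means ran from 1.12 to 2.34 for cartilage and bone, 0.38 to 1.76 for endothelium, 0.23 to 1.71 for epithelium, 0.81 to 1.1 for skeletal muscle, 1.25 to 3.05 for neural and glial cells and 2.01 to 5.38 for adipocytes. In RNA from a whole culture, fewer cells of a type and less RNA per cell cannot be told apart.

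The question the design sets is whether loss of Stc1 goes with a different set of Wnt ligands, receptors or inhibitors. By mean FPKM, the leading gene of each family was the same in both genotypes. Wnt5a was the leading ligand by FPKM, and Fzd7, Fzd1 and Fzd2 were the leading Frizzleds. Lrp5 and Lrp6 were both present, and Sfrp1 and Dkk3 were the leading secreted inhibitors by mean FPKM. No member passed the test between genotypes. The most negative log2 fold change (knockout over wild type) was that of the ligand Wnt2b, -2.02 with a standard error of 0.67. The receptor Fzd7 was nearly level, at 0.06 with a standard error of 0.17.

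Of the 45 loci, 31 passed edgeR's filter on low counts and were tested, and 25 of them had a mean of at least 1 CPM. edgeR's quasi-likelihood test called 0 of 31 members at a Benjamini-Hochberg adjusted p under 0.05, and over all 15673 genes tested the share called was 0.0%. The adjusted p of the members ran from 0.763 to 0.989 in edgeR's test, and the lowest over all genes was 0.194. At an unadjusted p under 0.05 there was 1 member, Wnt2b, lower in knockout cells, beside 2.27% of all genes lower, 1.6% higher and 3.87% in either direction. Wnt2b was also the only tested member whose 3 knockout libraries all lay to 1 side of the 3 wild-type libraries, against 10.6% of all genes (5.44% lower, 5.18% higher). With both directions counted, 1 in 31 members is not above these shares of all genes. A single member is too few to compare by direction.

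DESeq2 called 0 members as well, beside 0.328% of all genes. Of the 31 members that passed edgeR's filter, 3 had an unadjusted DESeq2 p under 0.05 (Wnt2b, Fzd8 and Sfrp1, all lower in knockout cells). Of the 23509 genes it gave a p, 5.2% reached that level, 3.26% lower and 1.94% higher. These include genes below edgeR's filter, so the 2 shares are over unlike sets. limma-voom called 0 members and had 0 at an unadjusted p under 0.05. The log2 fold change was negative for 19 and positive for 12 of the 31 tested members, and its median was -0.18. Over all genes 55.6% were negative, against 61.3% of the members, and the median was -0.05. By family, 7 of 11 tested ligand loci, 5 of 9 Frizzleds, 1 of 2 co-receptors, 5 of 7 secreted inhibitors and 1 of 2 Axins had negative values. No member of any family passed the test.

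**Figure D1:**
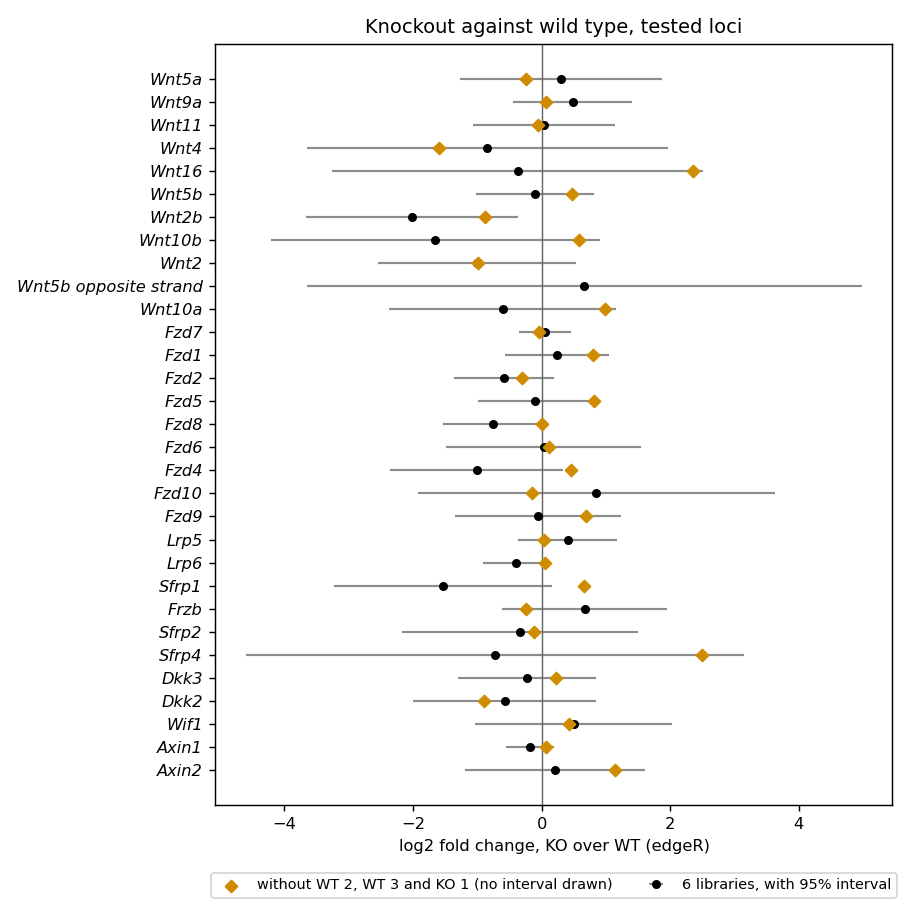
Fitted log2 fold change (KO over WT, horizontal axis) of the 31 tested members, with black points for all 6 libraries, bars for the 95% interval, and diamonds for the fit that leaves out the 3 libraries richest in macrophage markers (WT 2, WT 3 and KO 1). The interval of Wnt2b (-3.66 to -0.37) lies below 0, and the narrowest intervals belong to Axin1, Fzd7 and Lrp6.

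The precision differed widely between members. The median standard error of the log2 fold change was 0.57 over the 31 members and 0.30 over all genes. Between the highest and the lowest of the 6 libraries, the median ratio of CPM was 4.30 over the members and 2.05 over all genes. Only for 4 members, Fzd7, Axin1, Lrp6 and Fzd5, did the 95% interval stay within a doubling in either direction. For the other 27 members a change of 2-fold in at least 1 direction lies inside the interval.

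**Figure D2:**
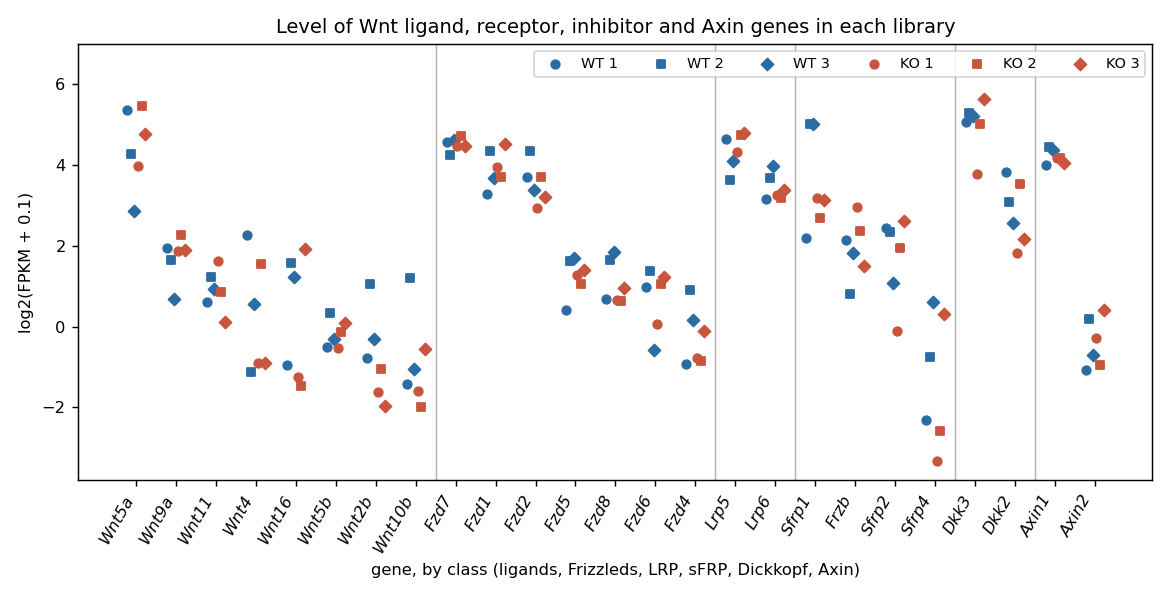
Deposited FPKM, as log2(FPKM + 0.1), of the members with a mean of at least 1 CPM, ordered by level within each family, with 1 point per library (blue for wild type, red for knockout, and a shape for each replicate). Dkk3, Wnt5a, Fzd7 and Lrp5 have the highest means (34.2, 25.8, 22.9 and 21.5 FPKM), and blue and red points mix for most genes.

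Among the ligands, Wnt5a stood far above the rest. On the FPKM scale, which corrects for transcript length and so allows genes to be compared, its mean over the 6 libraries was 25.8, followed by Wnt9a at 3.36, Wnt11 at 1.86, Wnt4 at 1.69 and Wnt16 at 1.63. Wnt5b (0.806), Wnt2b (0.654) and Wnt10b (0.638) were lower still. Wnt5a is the main non-canonical ligand of embryonic mesenchyme, known for limb and axis outgrowth. Its share of the summed FPKM of all ligand loci was 77.1, 55.4 and 42.8% in wild-type replicates 1 to 3 and 62.1, 79.7 and 71.2% in knockout replicates 1 to 3. The sum itself ran from 16.8 FPKM in wild-type replicate 3 to 55.6 FPKM in knockout replicate 2. Wnt5a was thus the first ligand in every library, but made up less than a majority in wild-type replicate 3.

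**Figure D3:**
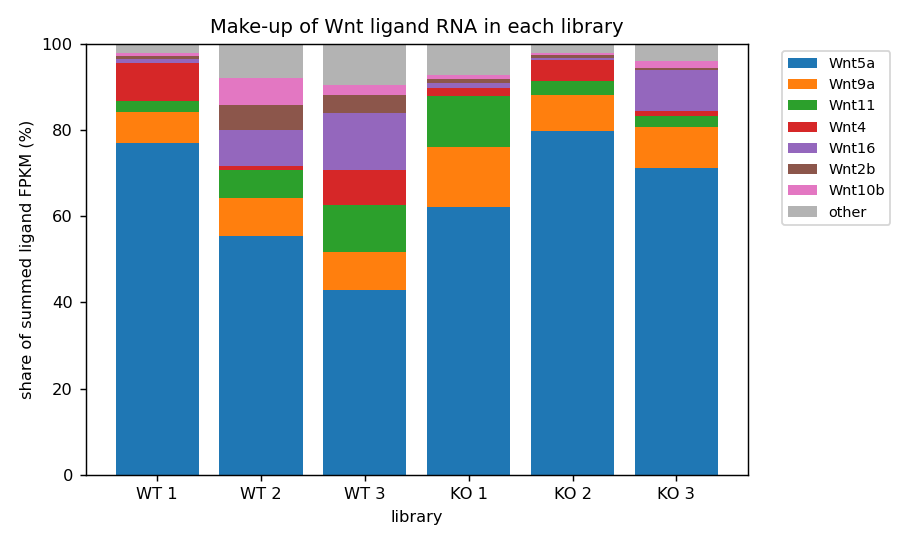
Share of each ligand in the summed FPKM of the ligand loci, as stacked bars that reach 100% for each of the 6 libraries. Wnt5a takes 42.8 to 77.1% in wild-type and 62.1 to 79.7% in knockout libraries.

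In the values that follow, the 3 wild-type libraries come before the 3 knockout libraries, each in the order of replicates 1 to 3, and the unit is CPM. The Wnt5a gene (5 exons, chromosome 14 of mm10, 28504750 to 28527451, plus strand) was at 209.8, 103 and 40.9 CPM in wild-type and 80.9, 217 and 137 CPM in knockout cells. The highest wild-type and the highest knockout library were nearly level, and the groups overlapped over most of their range. The log2 fold change was 0.30 with a 95% interval from -1.27 to 1.87, and it ran from -0.11 to 1.01 when 1 library was left out.

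Wnt9a, which takes part in joint formation, was at 15.5, 11.9 and 5.84 CPM in wild-type and 14.0, 18.3 and 14.1 CPM in knockout cells (log2 fold change 0.48, interval -0.44 to 1.41). Wild-type replicate 3 was the low library for both Wnt9a and Wnt5a. Wnt11, a second ligand of the non-canonical branch known from kidney branching, was at 3.02, 4.71 and 3.91 against 6.15, 3.73 and 2.06 CPM. The wild-type values of Wnt11 lay inside the knockout range. Wnt5b, the close relative of Wnt5a, was at 1.6, 3.0 and 1.8 against 1.5, 2.06 and 2.37 CPM and was the steadiest ligand, with a ratio of 1.99 between its highest and lowest library.

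Wnt4 and Wnt16 varied more within a genotype than between genotypes. Wnt4, needed for kidney tubules and the female reproductive tract, was at 25.1, 1.85 and 7.01 CPM in wild-type and 2.25, 14.4 and 2.20 CPM in knockout cells. It was high in wild-type replicate 1 and knockout replicate 2, which were also the highest libraries for Wnt5a. Wnt16, known for its role in cortical bone, was at 1.19, 9.06 and 6.83 against 0.986, 1.02 and 11.1 CPM. It was high in knockout replicate 3 and in wild-type replicates 2 and 3, which were not the high libraries of Wnt4. The ratio of highest to lowest library was 13.5 for Wnt4 and 11.2 for Wnt16, and the intervals of their log2 fold changes (-0.85 and -0.37) reached from -3.66 to 1.96 and from -3.26 to 2.51.

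Wnt2b had the lowest p of the set. It encodes a canonical ligand that acts with Wnt2 in the early lung, and its locus (up to 5 exons in a transcript) lies on the minus strand of chromosome 3 from 104939660 to 104961771. It was at 3.67, 15.1 and 5.09 CPM in wild-type and 1.88, 2.90 and 1.11 CPM in knockout cells. Every knockout library was below every wild-type library, though knockout replicate 2 and wild-type replicate 1 were close. The means were 7.95 ± 6.23 and 1.96 ± 0.896 CPM (SD, n = 3 each). The log2 fold change was -2.02 with a 95% interval from -3.66 to -0.37 and an unadjusted p of 0.0240. Adjusted over all genes, the adjusted p of edgeR's quasi-likelihood test was 0.763 and that of DESeq2 0.315, and the alternatives ranged from 0.180 to 1.0. The size rested on wild-type replicate 2: without it the log2 fold change was -1.14. That library also had the highest proliferation, cartilage and bone and fibroblast markers, and the part of these in the Wnt2b level was not tested.

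Wild-type replicate 2 was the high library for further ligands. Wnt10b, which favours bone over fat in mesenchymal precursors, was at 0.878, 8.60 and 1.26 CPM in wild-type and 0.752, 0.536 and 2.09 CPM in knockout cells. Its log2 fold change was -1.65 with all libraries and 0.11 without wild-type replicate 2. Wnt2, a relative of Wnt2b, had its highest level in that library too (1.90 CPM, with 0.349 to 1.03 CPM in the other libraries), and so did Wnt10a (0.749 CPM, with 0.0939 to 0.488 CPM elsewhere).

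Many Wnts were at the edge of detection. Wnt1, Wnt3, Wnt3a, Wnt6, Wnt7a, Wnt7b, Wnt8a, Wnt8b and Wnt9b did not pass the filter on low counts, and none had more than 29 fragments in a library (Wnt3 in wild-type replicate 1). Wnt3 itself had 29, 0 and 0 fragments in wild-type and 3, 6 and 3 in knockout libraries. A count of 0 leaves room for as many as 3 fragments, which was 0.0425 to 0.141 CPM depending on the library and covers counting error only. No fold change is given for these genes.

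The files hold a second locus for Wnt5b and for Wnt4, on the strand opposite to the gene. That of Wnt5b spans 1276 bases on the plus strand of chromosome 6, from 119432560 to 119433835, and all of it lies in exons of Wnt5b by GENCODE. It had 0, 13 and 14 fragments in wild-type and 20, 0 and 3 in knockout libraries. That of Wnt4 spans 2784 bases on the minus strand of chromosome 4 (137297000 to 137299783), of which 98.0% lie in Wnt4 exons, and held 12 fragments in knockout replicate 3 and 0 in the other libraries. The library kit marks strand, but no source used here gives the strand setting of the counting, so these fragments cannot be told apart from those of the partner gene.

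The Frizzleds were dominated by 3 close relatives. Fzd7, Fzd1 and Fzd2 had mean levels of 22.9, 15.6 and 12.2 FPKM, and the next, Fzd5 and Fzd8, had 2.37 and 2.14. Fzd7 was the first Frizzled in 4 of the 6 libraries, with 27.0 to 45.8% of the summed Frizzled FPKM. In wild-type replicate 2 the order was Fzd2, Fzd1, Fzd7 (29.1, 29.0 and 27.0%), and in knockout replicate 3 Fzd1 was slightly ahead (36.6 against 35.8%). The sum over the 9 Frizzleds was 50.4 to 69.7 FPKM.

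Fzd7, a single-exon gene on the plus strand of chromosome 1 (59481577 to 59489710), was at 138, 105 and 135 CPM in wild-type and 126, 146 and 122 CPM in knockout cells. The 6 libraries lay within a ratio of 1.40, and the interval of the log2 fold change (0.06) was -0.35 to 0.46. Fzd1 was at 54.0, 108 and 68.2 against 83.3, 68.9 and 119.5 CPM, with groups that overlapped over most of their range (0.24, interval -0.56 to 1.05). Fzd2 was at 59.9, 89.8 and 45.8 against 33.6, 56.9 and 40.1 CPM, and a single knockout library, replicate 2, lay inside the wild-type range (-0.58, interval -1.36 to 0.20).

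Fzd5 and Fzd8 form another pair of relatives. Fzd8, a single-exon gene on the plus strand of chromosome 18 (9211935 to 9217597), was at 9.15, 16.9 and 19.2 CPM in wild-type and 8.31, 8.29 and 10.1 CPM in knockout cells. The knockout libraries were nearly level, and wild-type replicate 1 stood with them, while wild-type replicates 2 and 3 were higher. The means were 15.1 ± 5.25 and 8.91 ± 1.05 CPM, the log2 fold change was -0.76 (interval -1.53 to 0.01), and the unadjusted p was 0.0528 (adjusted p = 0.763, edgeR's quasi-likelihood test). Fzd5 was at 10.9, 25.5 and 26.6 against 20.0, 16.9 and 21.5 CPM. Here too wild-type replicate 1 was low and wild-type replicates 2 and 3 were high, with the knockout libraries between them (-0.11, interval -0.99 to 0.78).

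Fzd4, also the receptor of norrin in retinal vessels, had a like pattern, with wild-type replicate 1 lowest and wild-type replicates 2 and 3 highest. It was at 3.31, 14.3 and 8.5 CPM in wild-type and 3.80, 3.59 and 5.55 CPM in knockout cells (-1.01, interval -2.35 to 0.33). Fzd6, which acts in planar polarity of hair, was at 9.49, 12.4 and 2.67 against 4.56, 9.57 and 11.0 CPM. Its lowest library was wild-type replicate 3, and the log2 fold change was 0.04 with an interval from -1.48 to 1.55. Fzd10 and Fzd9 were tested but had at most 1.11 and 0.333 CPM in any library. Fzd10 ranged from 1 fragment in wild-type replicate 2 to 74 in wild-type replicate 1, within a single genotype.

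The co-receptors were among the best-measured members, with 2184 to 11354 fragments per library. Lrp5, whose loss lowers bone mass, was at 161, 74.2 and 104 CPM in wild-type and 119, 164 and 167 CPM in knockout cells. Wild-type replicate 1 lay among the knockout libraries, and the others were below them (0.41, interval -0.36 to 1.18). Lrp6, the closely related main co-receptor in the embryo, was at 100.03, 139 and 169 against 103, 98.9 and 109 CPM (-0.39, interval -0.91 to 0.12). Again wild-type replicate 1 stood with the knockout libraries. Without it the log2 fold changes were 0.76 for Lrp5 and -0.57 for Lrp6, both at an unadjusted p under 0.05. Among the members 7 reached this level there, 2 higher (Lrp5 and Fzd10) and 5 lower (Lrp6, Fzd8, Fzd4, Sfrp1 and Wnt2b), as did 18.4% of all 15960 genes tested, 10.1% higher and 8.31% lower. None passed the adjustment, for which the lowest edgeR value among all members in that fit was 0.103.

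**Figure D4:**
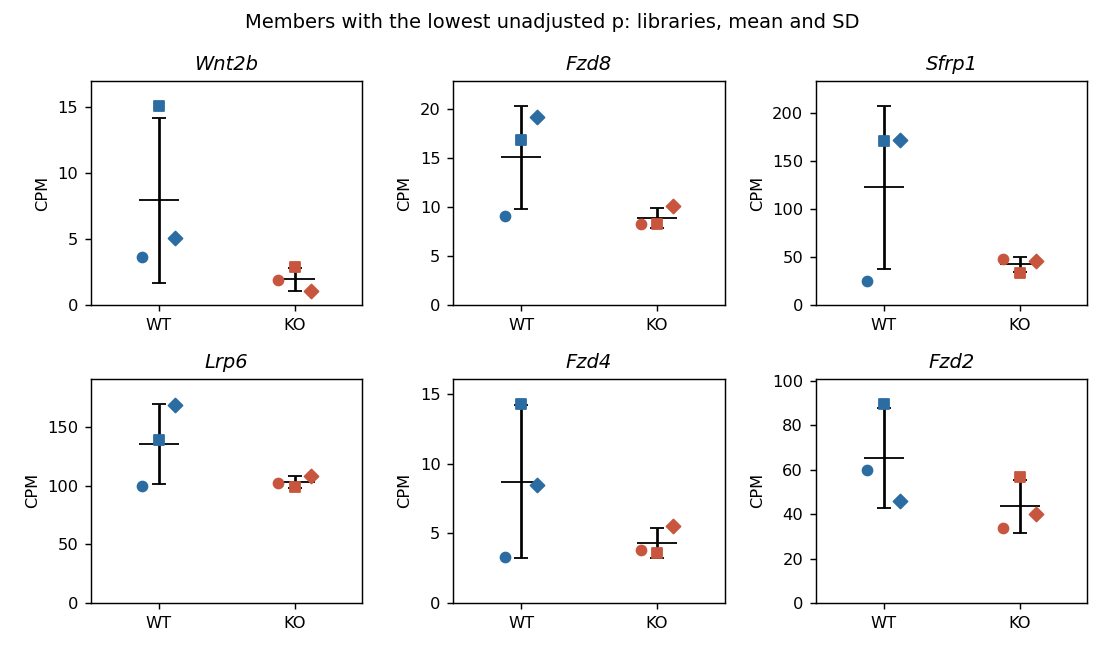
CPM per library of the members with the lowest p, with wild-type and knockout points and the mean ± SD of each genotype, on linear axes that start at 0. Wnt2b is the member whose groups do not overlap (3.67 to 15.1 against 1.11 to 2.90 CPM), and for Sfrp1 and Fzd8 wild-type replicate 1 lies near or below the knockout points.

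Among the secreted inhibitors, the sFRPs carry a Frizzled-like domain that binds Wnts. Sfrp1 (3 exons, plus strand of chromosome 8, 23411502 to 23449632) was at 25.0, 171 and 172 CPM in wild-type and 48.2, 33.5 and 45.7 CPM in knockout cells. Wild-type replicates 2 and 3 were level and above every knockout library, and wild-type replicate 1 was the lowest of all 6. The means were 123 ± 84.6 and 42.5 ± 7.86 CPM. The log2 fold change was -1.53 (interval -3.23 to 0.17) with an unadjusted p of 0.0694 and an adjusted p of 0.763 in edgeR's quasi-likelihood test. Without wild-type replicate 1 it was -2.01, with an adjusted p of 0.103 in the same test. The authors' deposited table gives Sfrp1 a mean of 22.9 FPKM in wild-type and 7.99 FPKM in knockout cells, a log2 fold change of -1.52, a p-value of 0.0388 and a q-value of 1.0.

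The libraries high in Sfrp1 were also 2 of the 3 with the most macrophage RNA, summing to 1614 and 12034 CPM of macrophage markers. The third, knockout replicate 1 with 1502 CPM, had 48.2 CPM of Sfrp1, the highest of the knockout libraries by a small margin. With these 3 libraries left out, which leaves 1 wild-type and 2 knockout libraries, the Sfrp1 log2 fold change was 0.66, that of Fzd8 0.01, that of Fzd4 0.46 and that of Wnt2b -0.88. In that fit the lone wild-type library is assumed to vary like the others. The part of macrophages in these levels was not tested.

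Sfrp1 made up 31.6, 81.9 and 82.5% of the summed sFRP FPKM in wild-type and 51.3, 41.4 and 46.7% in knockout libraries. The sum was 39.1 and 39.2 FPKM in wild-type replicates 2 and 3 and 14.2 to 18.6 FPKM in the other 4 libraries. Frzb, also called sFRP3 and known from cartilage, was at 13.8, 5.62 and 10.4 CPM in wild-type and 24.1, 16.1 and 7.30 CPM in knockout cells. Sfrp2 was at 10.4, 11.0 and 4.72 against 1.41, 7.48 and 11.7 CPM. Neither set of groups separated, and the intervals of their log2 fold changes were -0.62 to 1.96 for Frzb and -2.17 to 1.5 for Sfrp2. Sfrp4 had 15, 43 and 139 fragments in wild-type and 0, 5 and 102 in knockout libraries, a spread within each genotype that left an interval from -4.59 to 3.14.

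Dkk3 had the highest mean FPKM of the whole set (34.2). It is a divergent Dickkopf and is not known to block Lrp6 as Dkk1 does. It was at 141, 158 and 149 CPM in wild-type and 55.3, 131 and 198 CPM in knockout cells. The wild-type libraries were close together (149.5 ± 8.43 CPM), and the knockout libraries surrounded them (128 ± 71.4 CPM). Dkk2, which binds Lrp5 and Lrp6, was at 66.0, 36.7 and 25.3 against 15.2, 51.6 and 19.1 CPM (-0.57, interval -1.99 to 0.84). Knockout replicate 2 lay inside the wild-type range, and without it the log2 fold change was -1.31. Knockout replicate 1 was the lowest library for Dkk2, Dkk3, Sfrp2 and Fzd2 alike, and also had the smallest number of fragments.

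The remaining inhibitors were low. Wif1 had 0.282 to 1.13 CPM in the 6 libraries and a log2 fold change of 0.50 (interval -1.03 to 2.03). Dkk1, the classic Lrp6 inhibitor, had 56, 2 and 2 fragments in wild-type and 2, 17 and 8 in knockout libraries and did not pass the filter. Its highest libraries, wild-type replicate 1 and knockout replicate 2, were those of Wnt5a and Wnt4. Dkkl1 had at most 27 fragments, Sfrp5 had at most 1, and Dkk4 was listed at 0 in all 6 libraries.

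Axin1, the scaffold of the β-catenin destruction complex, was at 64.4, 85.0 and 80.8 CPM in wild-type and 69.2, 70.7 and 63.8 CPM in knockout cells. It had the narrowest interval of the set, -0.55 to 0.19 around -0.18, and a ratio of 1.33 between its highest and lowest library. Axin2, a feedback inhibitor and a widely used readout of canonical signalling, was at 1.64, 4.12 and 2.11 against 1.83, 2.06 and 5.19 CPM. Each genotype had 1 higher library, wild-type replicate 2 and knockout replicate 3, and the other 4 lay between 1.64 and 2.11 CPM. The log2 fold change was 0.21 with an interval from -1.19 to 1.61, which holds a change of 2-fold in either direction.

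TCF/LEF factors bind sites with the letters CTTTGAA or CTTTGAT, and also CTTTGTA or CTTTGTT. They were searched on both strands in the 250 bases before RefSeq gene starts (GRCm38.p6), and a match is a description of the sequence, not a site. RefSeq windows were found for 29 of the 43 genes, 32 windows in all, and 4 of them held a match, where 14.8% of all 32851 windows did. The windows of 4 genes are shown, 5′ to 3′ on the strand of the gene: Fzd7 as the steadiest receptor, Wnt11 as a ligand whose groups overlapped fully, Wnt10b as a ligand high in a single library, and Axin2 as the readout gene. Capitals mark the match, which reads in reverse complement here.
Fzd7, chr1:59481897-59482146, plus strand: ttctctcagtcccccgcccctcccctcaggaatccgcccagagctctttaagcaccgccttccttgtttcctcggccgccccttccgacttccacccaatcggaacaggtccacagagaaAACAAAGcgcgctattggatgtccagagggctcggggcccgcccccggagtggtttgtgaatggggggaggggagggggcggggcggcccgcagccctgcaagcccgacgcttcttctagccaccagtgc
Wnt11, chr7:98834862-98835111, plus strand: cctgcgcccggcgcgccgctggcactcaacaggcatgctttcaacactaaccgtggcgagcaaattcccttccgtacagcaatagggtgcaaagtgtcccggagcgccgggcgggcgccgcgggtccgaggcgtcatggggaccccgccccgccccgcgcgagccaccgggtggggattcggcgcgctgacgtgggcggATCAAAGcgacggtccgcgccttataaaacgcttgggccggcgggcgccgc
Wnt10b, chr15:98778151-98778400, minus strand: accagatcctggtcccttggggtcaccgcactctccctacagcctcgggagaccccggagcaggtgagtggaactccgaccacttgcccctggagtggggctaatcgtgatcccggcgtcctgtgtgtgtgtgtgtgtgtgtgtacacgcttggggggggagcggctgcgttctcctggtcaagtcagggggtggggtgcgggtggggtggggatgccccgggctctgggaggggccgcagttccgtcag
Axin2, chr11:108920099-108920348, plus strand: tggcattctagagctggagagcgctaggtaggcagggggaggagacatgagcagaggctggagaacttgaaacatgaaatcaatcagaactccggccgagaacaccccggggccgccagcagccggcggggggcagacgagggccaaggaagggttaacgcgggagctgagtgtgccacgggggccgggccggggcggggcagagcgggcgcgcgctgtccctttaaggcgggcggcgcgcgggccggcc
The match of Fzd7 begins at -130 from the start and that of Wnt11 at -51. RefSeq gives Wnt11 a second window (chr7:98838595-98838844), in which no match was found. In the windows of Wnt10b and Axin2 none of these letters were found. The windows are rich in G and C, at 65.2% for Fzd7, 70.8% for Wnt11, 66.8% for Wnt10b and 69.2% for Axin2, against a median of 52.4% over all windows. The other windows with a match were that of Dkk1, with 2 matches, and 1 of the Wnt5b windows. Wnt2b, whose window held no match, was the only tested member whose groups did not overlap. The windows therefore cannot relate a match to a difference between genotypes.

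**Figure D5:**
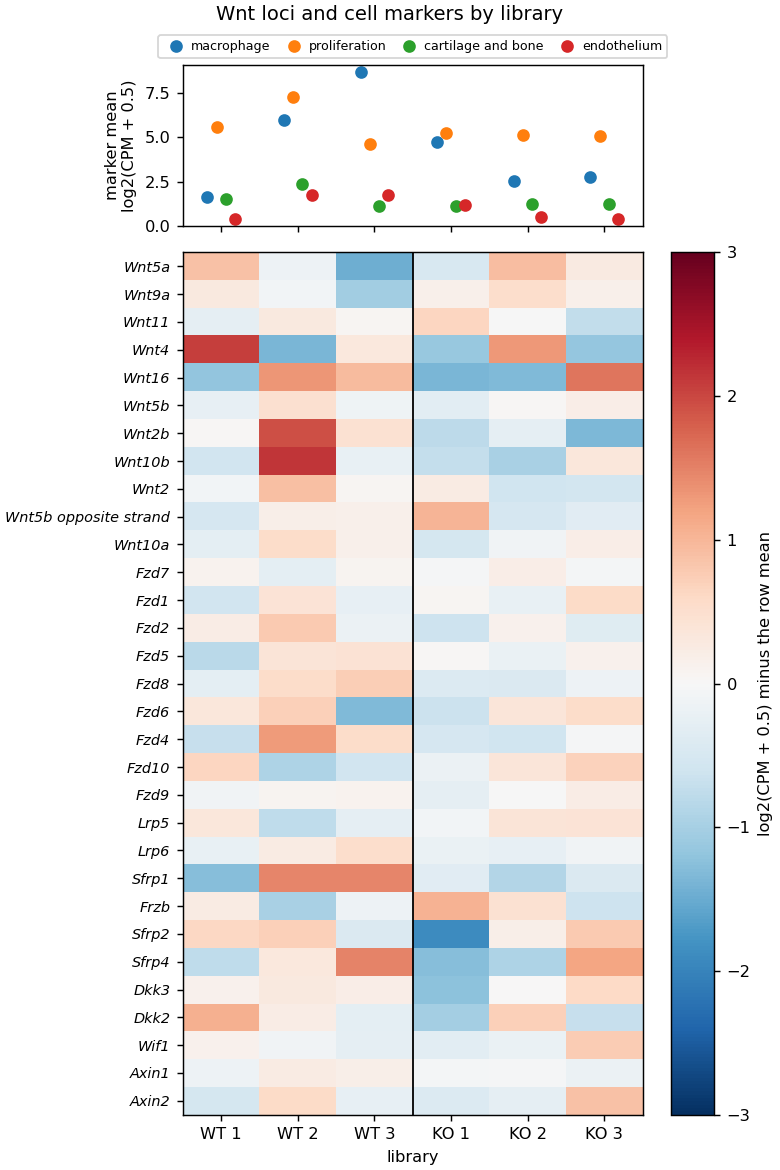
Log2(CPM + 0.5) of each tested member minus its mean over the 6 libraries, with wild-type libraries to the left of the line, below the mean log2(CPM + 0.5) of 4 marker lists in the same libraries. Sfrp1 is high in wild-type replicates 2 and 3, Wnt2b and Wnt10b in wild-type replicate 2, and Wnt4 in wild-type replicate 1 and knockout replicate 2.

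The plot of library deviations shows that members were high in different libraries. Wnt5a, Wnt4, Wnt9a, Fzd7 and Dkk2 all had wild-type replicate 1 as the highest wild-type library and knockout replicate 2 as the highest knockout library. Dkk1, which was not tested and is not drawn, had the same 2 libraries highest. Wnt2b, Wnt5b, Wnt10b, Wnt2, Wnt10a, Fzd2, Fzd4, Fzd6 and Axin1 had their highest value of all in wild-type replicate 2. Axin2, Dkk3, Wif1, Lrp5, Fzd1, Fzd9, Fzd10, Wnt16 and Sfrp2 had theirs in knockout replicate 3. Fzd5, Fzd8, Lrp6, Sfrp1 and Sfrp4 had theirs in wild-type replicate 3, though Sfrp1 was nearly level in wild-type replicate 2 (172 and 171 CPM). Wild-type replicate 3 had the most macrophage RNA (12034 CPM of its markers), whose part in these levels was not tested.

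Other genes of the pathway were taken from 5 lists, and edgeR's quasi-likelihood test called 0 genes in each, beside 0.0% of all genes. Of 32 tested cytoplasmic and nuclear pathway genes, 22 were positive in log2 fold change and 10 negative (median 0.10), and 2 were at an unadjusted p under 0.05. They were Tle1, a co-repressor that binds TCF factors, at 43.6, 48.4 and 38.1 CPM in wild-type and 70.3, 53.9 and 68.8 CPM in knockout cells, and Bcl9, a partner of β-catenin (0.61, standard error 0.24), whose locus also carries AC140071.1 and cannot be told apart from it. Ctnnbip1, which blocks β-catenin from TCF, had -0.73 (standard error 0.32), and Tcf7l2, a TCF factor, had -0.51 (standard error 0.24). Without the 3 libraries richest in macrophage markers the log2 fold changes were 0.49 for Tle1, 0.29 for Bcl9, -0.052 for Ctnnbip1 and -0.18 for Tcf7l2.

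Genes for the release and capture of ligands showed no common direction. Of 13 tested secretion genes and extracellular modifiers, 6 were positive and 7 negative (median -0.01). At an unadjusted p under 0.05 in edgeR's test there were 0, beside 3.87% of all genes. Wls, the carrier that takes Wnts to the cell surface, was at 385, 443 and 437 against 338, 388 and 384 CPM. Notum, an enzyme that strips the lipid from Wnts, was at 3.02, 1.19 and 4.35 against 4.13, 3.86 and 24.4 CPM, with knockout replicate 3 far above the rest. The heparan sulfate proteoglycan genes Sdc1 and Gpc3 had log2 fold changes of 0.38 and -1.61, with standard errors of 0.16 and 1.46. Gpc3 was at 2.69, 70.0 and 8.67 CPM in wild-type and 1.6, 3.08 and 21.9 CPM in knockout cells, so wild-type replicate 2 stood far above the rest. Without the 3 libraries richest in macrophage markers Gpc3 had 2.21, Sdc1 0.18, Notum 2.23 and Wls 0.0055.

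Among 14 tested genes of the non-canonical branch, 9 were positive and 5 negative (median 0.05), with 1 in each direction at an unadjusted p under 0.05. Over all genes 1.6% were higher and 2.27% lower at that level. Ror1, a receptor of Wnt5a, had 4 loci, and only the locus with the highest mean CPM is given. This Ror1 locus was at 0.977, 9.49 and 4.72 CPM in wild-type and 0.705, 0.536 and 1.33 CPM in knockout cells. It was high in wild-type replicates 2 and 3, and its log2 fold change of -2.55 was -0.06 without the 3 libraries richest in macrophage markers. Celsr1 and Celsr2, cadherins of planar polarity, had 0.77 and 0.68 (standard errors 0.30 and 0.29) at levels of 0.580 to 2.73 CPM. Prickle2, of the same system, had 0.51 (standard error 0.34). With those 3 libraries left out, Celsr1 had 0.89, Celsr2 0.68 and Prickle2 0.039.

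R-spondins strengthen Wnt signals by keeping Frizzleds on the cell surface, through the receptors Lgr4 and Lgr5 and the ubiquitin ligases Rnf43 and Znrf3. All 9 genes of this axis were tested, 4 positive and 5 negative, and 2 in each direction were at an unadjusted p under 0.05. That level was reached by 1.6% of all genes in the higher and 2.27% in the lower direction. Rspo3 was at 12.9, 14.4 and 11.1 CPM in wild-type and 28.7, 22.6 and 36.1 CPM in knockout cells. Its groups were well apart, and its log2 fold change of 1.19 (standard error 0.23) was 1.18 without the 3 libraries richest in macrophage markers. Lgr5 was at 2.49, 15.2 and 2.55 against 0.188, 0.885 and 0.266 CPM (-3.88, standard error 1.05). DESeq2 called both, with adjusted p of 0.00929 and 0.0163, beside 0.328% of all genes. The adjusted p of edgeR's quasi-likelihood test was 0.763 for each. Rnf43 was at 0.595, 0.703 and 1.01 against 1.27, 1.69 and 2.28 CPM, and Lgr4 at 28.9, 53.2 and 27.3 against 21.2, 22 and 23.3 CPM. With the same 3 libraries left out the log2 fold change was -2.13 for Lgr5, 1.74 for Rnf43 (1.19 with all) and -0.35 for Lgr4 (-0.72 with all).

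The last list holds 25 genes known as feedback genes or targets of β-catenin, among them the members Axin2 and Dkk1. Of its 22 tested genes outside the set, 14 were positive and 8 negative (median 0.07). At an unadjusted p under 0.05 there were 1 positive and 2 negative genes, beside 1.6% of all genes higher and 2.27% lower. Nkd1, an inhibitor of Dishevelled, was at 3.69, 6.98 and 4.24 CPM in wild-type and 2.54, 1.90 and 2.71 CPM in knockout cells (-1.06, standard error 0.35). Lgr5, Rnf43 and Notum, described above, are on this list too, with log2 fold changes of -3.88, 1.19 and 1.92. That of Nkd1 was -0.68 without the 3 libraries richest in macrophage markers. The 4 feedback genes with the lowest p thus had both signs, and Axin2 overlapped between genotypes.

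In the authors' deposited table, 33 of the 43 member genes are listed, 19 of them with the status OK. All 33 had a q-value of 1.0 there, those with the status NOTEST included. Sfrp1 was the 1 listed member with a p-value under 0.05, and the share of all genes at that level there was not counted. Wnt2b, Wnt5b, Wnt10b, Wnt16, Fzd2, Fzd7, Fzd8, Lrp5, Lrp6 and Dkk2 are not listed, so they cannot be set beside Sfrp1.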

How the data were processed

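Polyadenylated RNA of 3 wild-type and 3 knockout libraries was sequenced from a stranded kit. Per the submitters' processing notes, CASAVA 1.8.2, TopHat2 2.0.6, Cuffdiff 2.0.1 and mm10 were used; their roles and order are not recorded there. Per the file headers, the authors deposited for each locus an estimated count of fragments, an FPKM (fragments per length of transcript and depth of library) and a status. The authors' deposited comparison table holds mean FPKM, a log2 fold change, a p-value and a q-value per gene.

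Of 39495 loci, 2667 without a gene name and 16 marked HIDATA were dropped, and 1132 marked FAIL were kept; no member carries either mark. Unnamed loci held 0.507 to 0.555% of fragments. Of the estimated counts above 0, 24.2% were not whole, and all were rounded. edgeR 4.0.16 in R 4.3.3 was used (filterByExpr, TMM, robust quasi-likelihood F test) on all loci, with Benjamini-Hochberg adjustment; the threshold was an adjusted p of 0.05, and the common biological coefficient of variation was 0.467. Standard errors were derived from the F statistic, and 95% intervals from the t distribution. DESeq2 1.42.0, limma 3.58.1 (voom, and on log2(FPKM + 1) and log2(FPKM + 0.1)), other scalings and filters, and leaving out each library were alternatives. The fit without 3 libraries was added after seeing the data. Exon overlaps used GENCODE M21, and promoter windows RefSeq on GRCm38.p6.

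The members and all gene lists were chosen with earlier results of these data known. Every tested member with a mean of at least 1 CPM is given with all its libraries, the others by range, and from each pathway list the up to 4 genes with the smallest p.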

Additional observations from a re-analysis of the deposited data

How the results depend on the processing

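The count of members called was 0 in each direction under all 16 listed alternatives and the 1 added after seeing the data. Over all genes DESeq2 called 61 and limma on log2(FPKM + 0.1) called 1, against 0 in edgeR; DESeq2 called 2 of the other Wnt pathway genes (Rspo3 and Lgr5). No scaling or tool moved the median log2 fold change of all genes by more than 0.06. Other tools turned the sign for Fzd5 and Wnt11 alone: limma-voom gave 0.041 and -0.12, limma on log2(FPKM + 0.1) gave 0.011 and -0.057, and on log2(FPKM + 1) Wnt11 had -0.014. Leaving out 1 library kept the sign of 14 members in all 6 fits. For the other 17 the log2 fold changes ran from -0.42 to 0.72 for Axin2, from -0.68 to 0.14 for Dkk3, from -0.41 to 0.81 for Wif1, from -0.045 to 0.14 for Fzd7, from -0.0092 to 0.59 for Fzd1, from -0.41 to 0.10 for Fzd5, from -0.38 to 0.48 for Fzd6, from -0.52 to 0.25 for Fzd9, from -0.11 to 1.01 for Wnt5a, from -0.42 to 0.35 for Wnt11, from -2.33 to 0.52 for Wnt4, from -2.5 to 0.16 for Wnt16, from -0.27 to 0.24 for Wnt5b, from -2.47 to 0.11 for Wnt10b, from -2.37 to 1.31 for Wnt5b opposite strand, from -0.96 to 0.15 for Sfrp2, from -4.10 to 0.45 for Sfrp4. Without the 3 libraries richest in macrophage markers, 18 members had the opposite sign: Axin1 0.061, Dkk3 0.22, Lrp6 0.053, Fzd7 -0.045, Fzd5 0.82, Fzd8 0.0088, Fzd4 0.46, Fzd10 -0.15, Fzd9 0.69, Wnt5a -0.25, Wnt11 -0.062, Wnt16 2.35, Wnt5b 0.47, Wnt10b 0.59, Wnt10a 0.98, Sfrp1 0.66, Frzb -0.24, Sfrp4 2.5. The cause was not tested. No paired analysis was run, because the replicate numbers follow accession order and the labels state no pairing of wild-type with knockout libraries. The deposited names carry the same letter codes in both genotypes: AGTCAA for replicate 1, CAGATC for replicate 2 and CTTGTA for replicate 3. What the codes stand for is not stated, nor whether the genotypes were sequenced together. A batch that followed genotype could not be told apart from it. At these depths 14 member loci were too low to test, and a low count was not told apart from absent expression.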
